A study of Homo sapiens with 8 samples.

Results

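The metallothioneins and zinc response genes described here are MT1A, MT1E, MT1F, MT1G, MT1M, MT1X, MT2A, SLC30A1 and MTF1, 9 of the 23228 genes listed by symbol. They were taken by symbol, as a set proposed with earlier results of these data known. BT-549, an established mesenchymal-like triple negative breast cancer (TNBC) cell line, was grown in RPMI medium with fetal bovine serum and profiled as 8 RNA-seq libraries in 4 groups of 2. The vehicle group received DMSO, the EC359 group 100 nM of this inhibitor of the leukemia inhibitory factor receptor (LIFR), the vorinostat group 10 µM of this histone deacetylase inhibitor (HDACi), and the combination group both drugs at these doses, all for 24 h. The libraries held 19069450 to 24759041 counts on genes, and the summed level of the 4 mesenchymal markers VIM, ZEB1, CDH2 and FN1 was 4554 to 14135 CPM (counts scaled by the TMM method to a common library size), with none of them at 0. VIM and FN1 made up most of that sum. From vehicle to vorinostat, mean ZEB1 went from 83.5 to 44.7 CPM and FN1 from 2613 to 1958, while VIM and CDH2 rose. Of the receptor genes ESR1, PGR and ERBB2, ERBB2 was at 96.1 and 102 CPM in the vehicle libraries, and the others at 0. The labels do not say that the libraries of a group came from separate cultures, so p-values measure the spread between these libraries, which may be technical.

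Metallothioneins are small, cysteine-rich proteins that bind zinc, copper and cadmium and buffer free metal inside the cell. MTF1 is the zinc-sensing transcription factor that, when zinc is high, binds metal response elements in the promoters of metallothionein genes and of SLC30A1, which encodes the zinc exporter ZnT1 of the plasma membrane. Metallothionein genes are also known to respond to glucocorticoids and oxidative stress, and to be silenced in some tumors.

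The metallothionein members lie in a cluster on chromosome 16, and all are small genes of 2 or 3 annotated exons. In the GENCODE annotation of GRCh37 (hg19), MT2A lies at chr16:56642496-56643409 on the plus strand and MT1X at chr16:56716382-56718108 on the plus strand. SLC30A1 lies at chr1:211744910-211752503 and MTF1 at chr1:38275246-38325264, both on the minus strand. The promoters of the 4 well-expressed members are shown because they differ in their number of metal response element cores. The RefSeq table on GRCh38.p14 held these 4 members and 3 other metallothionein genes, and the 250 bases before the gene start are printed 5′ to 3′ on the strand of the gene. These are chr16:56608334-56608583 for MT2A, chr16:56682220-56682469 for MT1X, chr1:211579162-211579411 for SLC30A1 and chr1:37859593-37859842 for MTF1. Capitals mark matches to the core TGCACNC or TGCGCNC on either strand, and no 2 matches overlap.
MT2A: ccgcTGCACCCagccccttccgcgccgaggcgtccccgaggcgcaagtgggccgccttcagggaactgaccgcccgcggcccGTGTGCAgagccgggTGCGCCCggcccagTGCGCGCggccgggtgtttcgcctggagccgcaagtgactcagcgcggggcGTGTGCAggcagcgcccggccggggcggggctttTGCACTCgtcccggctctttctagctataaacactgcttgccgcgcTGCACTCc
MT1X: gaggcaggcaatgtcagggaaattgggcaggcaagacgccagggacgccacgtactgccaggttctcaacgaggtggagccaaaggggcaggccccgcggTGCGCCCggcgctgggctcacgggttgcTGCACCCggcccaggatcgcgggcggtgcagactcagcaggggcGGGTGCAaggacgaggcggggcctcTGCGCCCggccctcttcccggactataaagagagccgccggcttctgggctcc
SLC30A1: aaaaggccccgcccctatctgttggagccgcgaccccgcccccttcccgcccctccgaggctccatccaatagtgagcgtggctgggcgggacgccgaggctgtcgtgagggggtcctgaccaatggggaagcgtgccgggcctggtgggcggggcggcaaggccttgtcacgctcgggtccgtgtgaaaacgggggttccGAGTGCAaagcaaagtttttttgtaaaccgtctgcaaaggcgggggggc
MTF1: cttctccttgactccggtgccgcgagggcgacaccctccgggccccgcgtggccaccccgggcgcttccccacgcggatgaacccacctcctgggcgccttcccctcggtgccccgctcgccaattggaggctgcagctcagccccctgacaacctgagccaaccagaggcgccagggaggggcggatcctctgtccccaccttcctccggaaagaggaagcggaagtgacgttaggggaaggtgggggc

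In the full table window, which runs on for 50 bases after the start, MT2A had 8 matches, MT1X 4, SLC30A1 2 and MTF1 0. Of all 35116 windows of this length, 29.6% held at least 1 match, 8.6% at least 2, 0.601% at least 4 and 0.0199% at least 8. The 2 matches of SLC30A1 read on the strand opposite to the gene, 1 of them after the gene start. Among the other metallothionein genes in the table, MT1H had 8 matches, MT1B 3 and MT4 3. MT1A, MT1E, MT1F, MT1G, MT1M and MT3 are named only. A match is a description of the letters and not a site shown to be bound.

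Of the 7 metallothionein members, MT2A and MT1X carried nearly all of the reads, and the other 5 were at or near 0 in BT-549. MT2A and MT1X together held 99.9% to 100% of the counts on the 15 metallothionein genes listed. These 15 genes took 0.0370% and 0.0298% of all gene counts in the vehicle libraries, and 0.214% and 0.282% in the combination libraries. The share was 0.152% and 0.0891% with EC359 alone, and 0.0622% and 0.0604% with vorinostat alone. Every treated library was thus above both vehicle libraries, and the combination libraries were the highest.

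MT1A and MT1M had 0 counts in all 8 libraries, which at the depth of each library allows a level of up to 0.124 to 0.154 CPM (a floor of 3 counts, for counting error only). MT1E had 2 counts, both in combination library 2. MT1G had 0 and 1 counts in the vehicle libraries, 0 and 0 with EC359, 6 and 4 with vorinostat, and 0 and 10 with the combination, so the combination value rested on 1 library. The epithelial markers CDH1, EPCAM, KRT8, KRT18 and KRT19 were also higher in the libraries with 4 or more MT1G counts: their summed level was 2.97 and 4.02 CPM in the vehicle libraries, 7.30 and 8.16 with EC359, 25.04 and 13.8 with vorinostat, and 3.17 and 25.4 with the combination, with none of the 5 at 0 in any library. Their part in the MT1G counts was not tested.

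MT1F had 0 and 0 counts in the vehicle libraries, 4 and 0 with EC359, 5 and 1 with vorinostat, and 14 and 11 with the combination. Both combination libraries were above all the others. MT1B, the most read of the metallothionein genes outside the member list, had 0 and 0, 0 and 1, 5 and 8, and 19 and 13 counts in the same order. Against a floor of 3 counts set for the vehicle group, the combination counts stood 9.07-fold higher for MT1F and 11.6-fold higher for MT1B. No counting error was allowed for on the combination side. MT1H had 1 count in all, MT1L 1 and MT3 2, and MT1JP, MT1IP, MT1DP and MT4 had 0. A test on the low-count members was limited by depth: 5 of the 9 members, MT1F, MT1X, MT2A, SLC30A1 and MTF1, passed the filter on low counts, and MT1F passed it only through the group where it was high. The same held for MT1B, so the folds of MT1F and MT1B over the floor are descriptions and not tests.

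**Figure D1:**
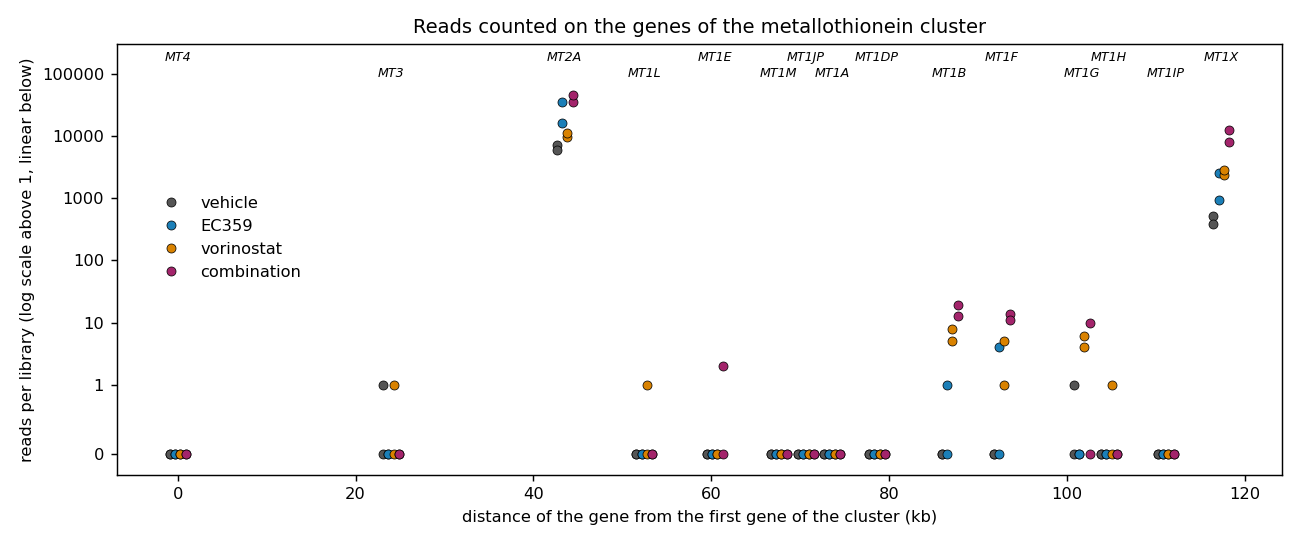
Reads counted per library on each listed gene of the metallothionein cluster, against its distance in kb from the first gene of the cluster, on an axis that is logarithmic above 1 read and linear below. Each point is 1 library, with 2 per group, and MT2A and MT1X stand above all other genes of the cluster, which stay at 19 reads or fewer.

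Metallothionein transcripts resemble each other, and reads of 50 bases can be assigned to the wrong copy. Of the 50-base windows of the MT2A transcript, 88.9% had no identical copy elsewhere in the genome, and 44.6% had none within 2 mismatches. For MT1X these shares were 79.7% and 55.5%, and for MT1F 93.9% and 83.2%. Reads with several placements were left out of the counts, and splits between copies are uncertain. MT1X also overlaps a long noncoding RNA gene on the same strand, and MTF1 overlaps a gene on its own strand and a pseudogene on the opposite strand.

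MT2A, the most widely expressed human metallothionein and the member with 8 cores in its promoter window, was already abundant in vehicle-treated BT-549 cells and rose with EC359. Its level was 341 and 274 CPM in the vehicle libraries, 1446 and 815 with EC359, 486 and 472 with vorinostat, and 1827 and 2294 with the combination. The groups did not overlap, and the order was vehicle, vorinostat, EC359 and combination. The EC359 libraries stood farther apart from each other than the vorinostat libraries did, and EC359 library 1 was the higher. By mean CPM, MT2A ranked 539th of 23228 genes in vehicle, 241st with vorinostat, 60th with EC359 and 37th with the combination.

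MT1X, the most abundant of the MT1 isoforms here, rose under each drug and most with the combination. Its level was 24.4 and 18.3 CPM in the vehicle libraries, 103 and 47.5 with EC359, 123 and 120 with vorinostat, and 413 and 629 with the combination. No groups overlapped, and the order differed from that of MT2A, since vorinostat stood above EC359. MT1X moved from rank 7594 in vehicle to 1892 in the vorinostat group, 3518 in the EC359 group and 213 in the combination group. Because each library is bulk RNA, more expressing cells and more RNA per cell cannot be told apart.

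SLC30A1, the zinc exporter, was not called with EC359 alone and rose with vorinostat. Its level was 12.0 and 14.9 CPM in the vehicle libraries, 12.7 and 15.5 with EC359, 95.0 and 98.7 with vorinostat, and 206 and 187 with the combination. The vehicle and EC359 libraries overlapped, and both vorinostat-containing groups lay far above them without overlap. MTF1, the zinc sensor, whose promoter window held 0 cores, was at 24.8 and 22.4 CPM in the vehicle libraries, 34.0 and 27.7 with EC359, 49.8 and 55.6 with vorinostat, and 85.8 and 83.3 with the combination. MTF1 groups did not overlap and followed the order vehicle, EC359, vorinostat and combination. For any gene here, separation of groups of 2 libraries is a description, since the share of all genes that separate likewise is not given.

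**Figure D2:**
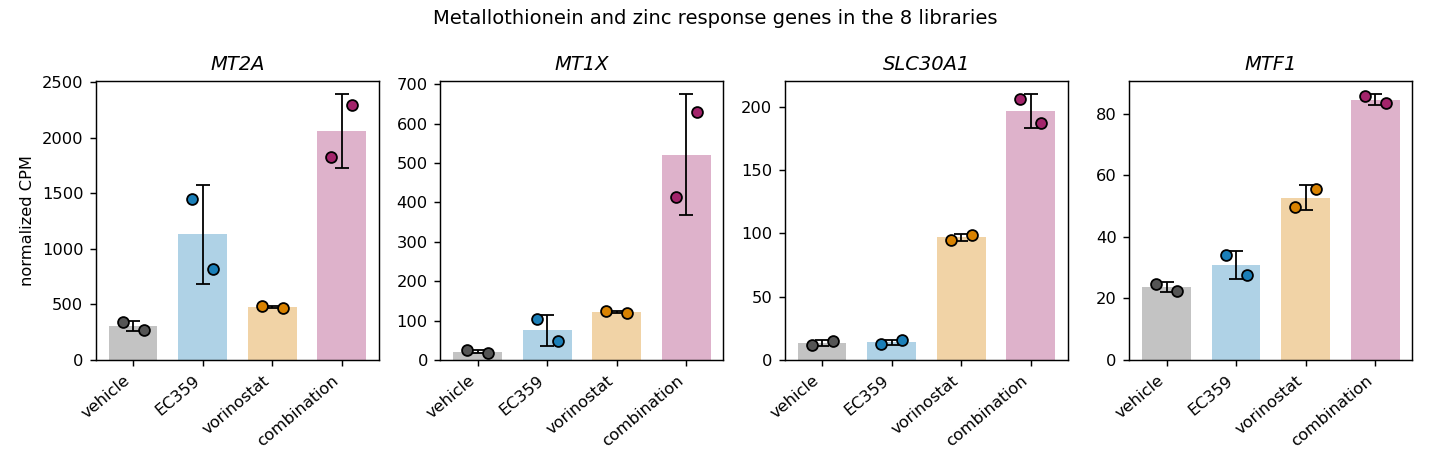
Normalized level in CPM of MT2A, MT1X, SLC30A1 and MTF1 in each library, with 1 panel per gene and each axis starting at 0. Points are libraries, bars are means and error bars are SD over 2 libraries, and the combination group is highest in all 4 panels, while for SLC30A1 the EC359 points (12.7 and 15.5 CPM) lie at the level of vehicle.

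Levels of different genes were compared per length of the transcript. MT2A stood at 766 ± 118 CPM per kb (SD, n = 2) in vehicle and MT1X at 52.8 ± 10.7, while SLC30A1 was at 2.28 ± 0.349 and MTF1 at 2.97 ± 0.210. With the combination MT2A reached 5139 ± 825 CPM per kb, MT1X 1290 ± 378, SLC30A1 33.3 ± 2.27 and MTF1 10.7 ± 0.217. On this scale SLC30A1 was below MTF1 in vehicle and above it with vorinostat, where the values were 16.4 ± 0.439 and 6.64 ± 0.513.

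The first comparison asked how these genes differed with EC359 alone. EC359 raised MT2A 3.68-fold and MT1X 3.53-fold against vehicle. The log2 fold change was 1.88 ± 0.24 (SE) for MT2A (adjusted p = 0.000896, Benjamini-Hochberg adjustment, quasi-likelihood test of edgeR) and 1.82 ± 0.34 for MT1X (adjusted p = 0.00703, same edgeR test). SLC30A1 changed by 0.07 ± 0.14 on the log2 scale, with an interval of -0.26 to 0.39 (edgeR, adjusted p = 0.793), and MTF1 by 0.39 ± 0.13 (edgeR, adjusted p = 0.0698). The test shares 1 estimate of the spread over all 4 groups. The 2 EC359 libraries differed by 49.6 times the sampling noise, against 2.26 times for the vorinostat libraries. These p-values can therefore understate the spread under EC359. Here and in the later comparisons between groups, a gene was called where its adjusted p was below 0.01 and its log2 fold change beyond 1 in size. The interaction had no fold threshold. By that rule 2 of the 5 tested members rose and 0 fell, against 1.94% of all 13694 tested genes that rose and 1.72% that fell. Both calls were lost when the fit used only the 4 libraries compared (edgeR, adjusted p = 0.0178 for MT2A and 0.0459 for MT1X), and MT2A was also lost without vehicle library 2 (adjusted p = 0.0179). The MT1X call was lost without vehicle library 1 (edgeR, adjusted p = 0.039), vehicle library 2 (0.0808), and each of the vorinostat and combination libraries (0.0144 to 0.0153), and without EC359 library 1 its log2 fold change was 1.16.

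The second comparison was of vorinostat with vehicle. Here SLC30A1 changed most among the members with reads in every library, 7.20-fold, followed by MT1X at 5.70-fold and MTF1 at 2.23-fold. The log2 fold changes were 2.85 ± 0.14 for SLC30A1 (edgeR with Benjamini-Hochberg adjustment, adjusted p = 5.43e-07), 2.51 ± 0.34 for MT1X (adjusted p = 0.000191) and 1.16 ± 0.13 for MTF1 (adjusted p = 4.7e-05). MT2A, the most abundant of them, was 0.64 ± 0.23 higher on the log2 scale, which did not pass the threshold (edgeR, adjusted p = 0.0368). In total 3 of 5 tested members rose and 0 fell, against 16.8% of all tested genes that rose and 13.3% that fell. Each of these 3 calls held with any 1 library left out.

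With the combination against vehicle, MT1X rose 24.4-fold, SLC30A1 14.6-fold, MT2A 6.71-fold and MTF1 3.58-fold. The log2 fold changes were 4.61 ± 0.37 for MT1X, 3.87 ± 0.15 for SLC30A1, 2.75 ± 0.25 for MT2A and 1.84 ± 0.13 for MTF1, with adjusted p of 5.51e-06, 8.37e-08, 1.13e-05 and 2.23e-06 (edgeR with Benjamini-Hochberg adjustment). MT1F passed the thresholds too (edgeR, adjusted p = 0.0088), but it entered the tested set only through its combination counts and so had to differ, and nothing is read from that value. Of the 4 tested members other than MT1F, 4 were called higher and 0 lower, where 19.5% of all tested genes rose and 15.3% fell. The MT1F call was lost without any 1 of the vehicle libraries (edgeR, adjusted p = 0.0477 and 0.0487), vorinostat libraries (0.0159 and 0.015) or combination libraries (0.0433 and 0.031).

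Adding EC359 to vorinostat raised MT2A, MT1X and SLC30A1. Against vorinostat alone, MT2A was 4.30-fold higher with the combination (log2 2.10 ± 0.24, edgeR with Benjamini-Hochberg adjustment, adjusted p = 0.000438), and MT1X was 4.29-fold higher (2.10 ± 0.33, adjusted p = 0.00204). SLC30A1, not called with EC359 alone, was 2.03-fold higher (1.02 ± 0.13, edgeR, adjusted p = 0.000678). MTF1 was 0.68 ± 0.12 higher on the log2 scale (edgeR, adjusted p = 0.00413), under the fold threshold. The count was 3 of 5 tested members higher and 0 lower, against 3.37% of all tested genes higher and 0.876% lower. The SLC30A1 fold change lay at the threshold and fell to 0.99 with RLE scaling, 0.93 with total-count scaling, 0.98 without the filter on low counts and 0.99 with DESeq2, and its call was also lost without vorinostat library 1 (edgeR, adjusted p = 0.0198), vorinostat library 2 (0.0158) or combination library 1 (0.0154). The MT1X call was lost without vorinostat library 1 (edgeR, adjusted p = 0.028), vorinostat library 2 (0.0285), combination library 1 (0.0109) or combination library 2 (0.0253).

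Adding vorinostat to EC359 raised SLC30A1 13.96-fold, MT1X 6.92-fold and MTF1 2.73-fold. The log2 fold changes of the combination against EC359 were 3.80 ± 0.14 for SLC30A1 (edgeR with Benjamini-Hochberg adjustment, adjusted p = 1.39e-07), 2.79 ± 0.34 for MT1X (adjusted p = 7.69e-05) and 1.45 ± 0.13 for MTF1 (adjusted p = 9.68e-06). MT2A was 0.87 ± 0.23 higher (edgeR, adjusted p = 0.00896), under the fold threshold, and this difference passed at 1.32 without EC359 library 1. MT1F, with 4 counts in the EC359 group and 25 in the combination group, did not pass (edgeR, adjusted p = 0.0448). Thus 3 of 5 tested members rose and 0 fell, while 19.8% of all tested genes rose and 13.9% fell.

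The interaction asked whether the log2 change with both drugs exceeded the sum of the changes with each. For the interaction a gene was called on an adjusted p below 0.01 alone, with no fold threshold. No member was called, with 1 of 5 (SLC30A1) at an unadjusted p under 0.05, where 1.62% of all tested genes were called above the sum and 0.482% below it. For MT2A the interaction was 0.23 ± 0.33 on the log2 scale (edgeR with Benjamini-Hochberg adjustment, adjusted p = 0.758), with an interval of -0.52 to 0.97. For MT1X it was 0.28 ± 0.46 (adjusted p = 0.79, same edgeR test), with an interval of -0.76 to 1.32, and for MTF1 0.29 ± 0.18 (adjusted p = 0.386). These intervals are wide enough to hold departures from the sum in either direction. For SLC30A1 the interaction was 0.96 ± 0.19 (edgeR, adjusted p = 0.0204), and DESeq2 called it at 0.91 (adjusted p = 0.00107). The edgeR call was also made without EC359 library 1 (0.82, adjusted p = 0.00467) or EC359 library 2 (1.09, adjusted p = 0.000686). The 3 comparisons against vehicle share the vehicle libraries, and the 3 that involve the combination share its libraries.

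**Figure D3:**
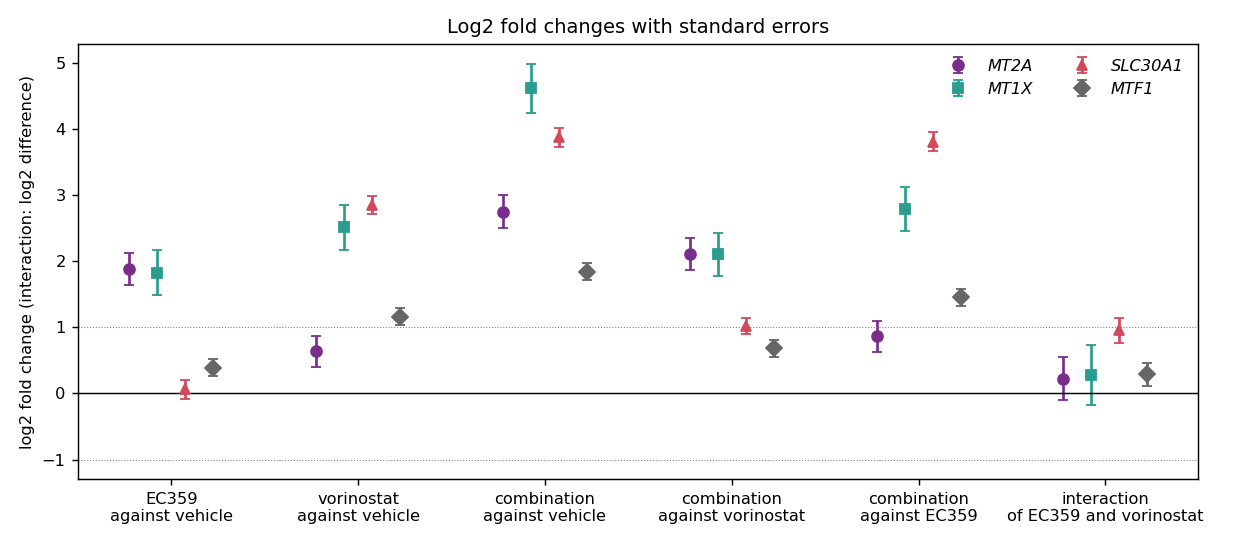
Log2 fold change with its standard error for MT2A, MT1X, SLC30A1 and MTF1 in the 5 comparisons, and the interaction as a log2 difference, with dotted lines at the fold threshold. Under EC359 alone MT2A and MT1X (1.88 and 1.82) stand apart from SLC30A1 (0.07) and MTF1 (0.39), whereas under vorinostat alone SLC30A1 (2.85) and MT1X (2.51) stand above MT2A (0.64).

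The balance between the 2 expressed metallothioneins was read within each library, where scaling cancels out. There were 7.16 and 6.67 MT1X reads per 100 MT2A reads in the vehicle libraries, 7.11 and 5.83 with EC359, 25.3 and 25.4 with vorinostat, and 22.6 and 27.4 with the combination. The 4 libraries with vorinostat lay above the 4 without it and did not overlap them. The ratio was 3.77-fold higher with vorinostat (exact permutation test over the 8 libraries, two-sided, p = 0.0286, the smallest this design allows, 0.0858 after Benjamini-Hochberg adjustment over 6 ratio tests). With and without EC359 it differed 0.957-fold (exact permutation p = 0.743, adjusted 0.743). So the shift in balance went with vorinostat in 4 of 4 libraries, although it did not pass after adjustment. This ratio and those below were chosen after the data had been seen, so their p-values describe the split and do not test it.

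There were 3.52 and 5.44 SLC30A1 reads per 100 MT2A reads in the vehicle libraries, 0.881 and 1.90 with EC359, 19.5 and 20.9 with vorinostat, and 11.3 and 8.15 with the combination. EC359 libraries were below the vehicle libraries, and combination libraries below the vorinostat libraries. The ratio was 5.85-fold higher with vorinostat (exact permutation p = 0.0286, adjusted 0.0858), and for EC359 the ratio was 0.374-fold (exact permutation p = 0.257, adjusted 0.386). SLC30A1 reads per 100 MT1X reads gave 1.55-fold for vorinostat (exact permutation p = 0.457, adjusted 0.548) and 0.391-fold for EC359 (exact permutation p = 0.0571, adjusted 0.114). Each EC359 test of a ratio, that of MT1X per 100 MT2A reads included, shuffled all 8 libraries without regard to vorinostat. Differences between libraries with and without vorinostat enter its spread, so these p-values cannot decide whether EC359 moved a ratio.

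**Figure D4:**
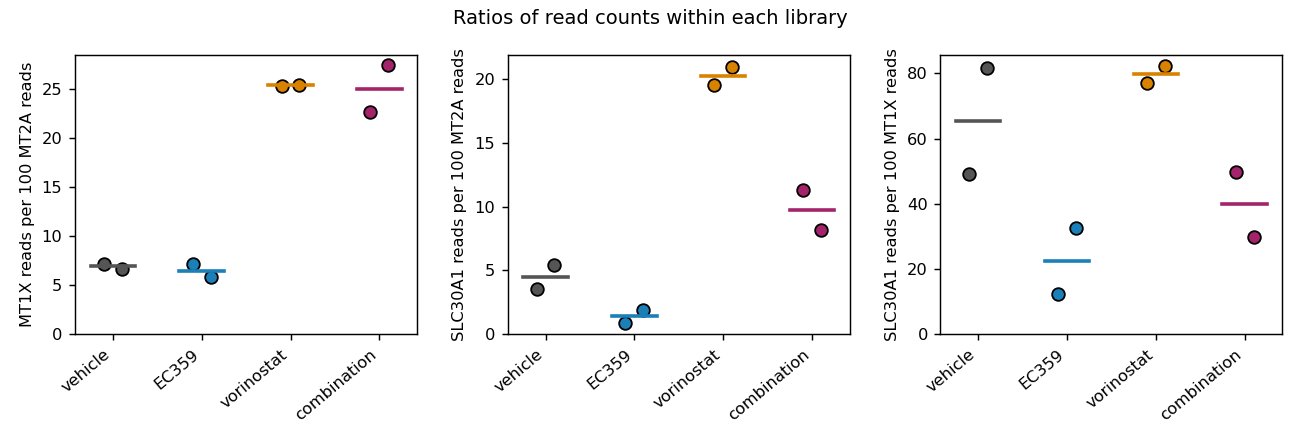
Read ratios within each library for MT1X per 100 MT2A reads, SLC30A1 per 100 MT2A reads and SLC30A1 per 100 MT1X reads, with 1 point per library and a line at the group mean. In the first panel the libraries with vorinostat (22.6 to 27.4) lie above those without it (5.83 to 7.16).

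Across the 8 libraries the levels of the members moved together to different degrees (Pearson r of log2 CPM, given as a description, since the points share their groups). MT1X and MTF1 gave r = 0.964, SLC30A1 and MTF1 0.959, MT1X and SLC30A1 0.866, MT2A and MT1X 0.845, MT2A and MTF1 0.694, and MT2A and SLC30A1 0.492. The genes outside the family whose pattern was most like that of MT2A were PPP1R15A, a stress-induced phosphatase subunit (r = 0.998), CD68 (0.996) and SCML1 (0.991). For MT1X they included CSNK2A2 (0.994) and ZBTB43 (0.993). For SLC30A1 they were C12orf44 (1.00), AK1, an adenylate kinase (0.998), and ACN9 (0.997). This r does not weigh the size of a change. From vehicle to combination, mean CPM went from 21.3 to 521 for MT1X and from 45.8 to 98.0 for CSNK2A2. It went from 13.4 to 197 for SLC30A1 and from 19.8 to 35.5 for ACN9. MT2A (307 to 2061) and CD68 (43.6 to 245) were closer in size of change.

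Among the other zinc exporters, 2 of 6 tested rose with vorinostat, which raised 16.8% of all tested genes. Of 9 further genes of the SLC30 family, 6 were tested. With EC359, 0 rose and 0 fell by the edgeR test, with 3 at an unadjusted p under 0.05, among them SLC30A3 and SLC30A7 at adjusted p of 0.0308 and 0.017. With vorinostat 2 rose and 0 fell: SLC30A3 by 2.59 ± 0.19 (adjusted p = 3.75e-06) and SLC30A4 by 1.98 ± 0.17 (adjusted p = 1.22e-05) on the log2 scale (edgeR). The combination against vorinostat called 0 in either direction (edgeR), with 3 at an unadjusted p under 0.05. The shares of all tested genes that rose were 1.94% with EC359 and 3.37% for the combination against vorinostat.

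Among the zinc importers of the SLC39 family, which move zinc into the cytosol, SLC39A14 (ZIP14, which also carries iron and manganese) rose in each step. Its level was 435 and 487 CPM in the vehicle libraries, 952 and 1218 with EC359, 1169.8 and 1208 with vorinostat, and 4739 and 4046 with the combination. EC359 and vorinostat libraries overlapped, and the combination libraries stood above them all. Its log2 fold change was 1.24 ± 0.13 for EC359 (edgeR, adjusted p = 0.000262), 1.37 ± 0.13 for vorinostat (adjusted p = 1.84e-05) and 1.89 ± 0.13 for the combination against vorinostat (adjusted p = 2.34e-05).

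SLC39A10 (ZIP10), an importer of the plasma membrane, went the other way. Its level was 106 and 106 CPM in the vehicle libraries, 62.6 and 56.1 with EC359, 39.0 and 38.5 with vorinostat, and 18.9 and 18.4 with the combination, with no overlap between groups. It fell by 1.46 ± 0.10 on the log2 scale with vorinostat (edgeR, adjusted p = 2.46e-06) and by a further 1.05 ± 0.10 when EC359 was added (adjusted p = 0.000152). With EC359 alone the difference was -0.84 ± 0.10 (edgeR, adjusted p = 0.000447), under the fold threshold.

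Of the 14 SLC39 genes 13 were tested. EC359 called 1 higher and 0 lower, vorinostat 2 higher (SLC39A14 and SLC39A3, the latter by 1.43 ± 0.17 on the log2 scale, edgeR, adjusted p = 7.39e-05) and 1 lower, and the combination against vehicle 3 higher and 2 lower. Of those 3, SLC39A12 entered the tested set only through its counts in libraries with vorinostat, so nothing is read from its call. The median log2 fold change over the SLC39 genes was -0.08 under EC359 and 0.34 under the combination, where the medians over all tested genes were -0.02 and 0.07, and -0.08 under vorinostat, where that median was 0.03. The shares of all tested genes called higher and lower were 1.94% and 1.72% with EC359, 16.8% and 13.3% with vorinostat, and 19.5% and 15.3% for the combination against vehicle, so the counts over the family under vorinostat and the combination lie near those of all genes.

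**Figure D5:**
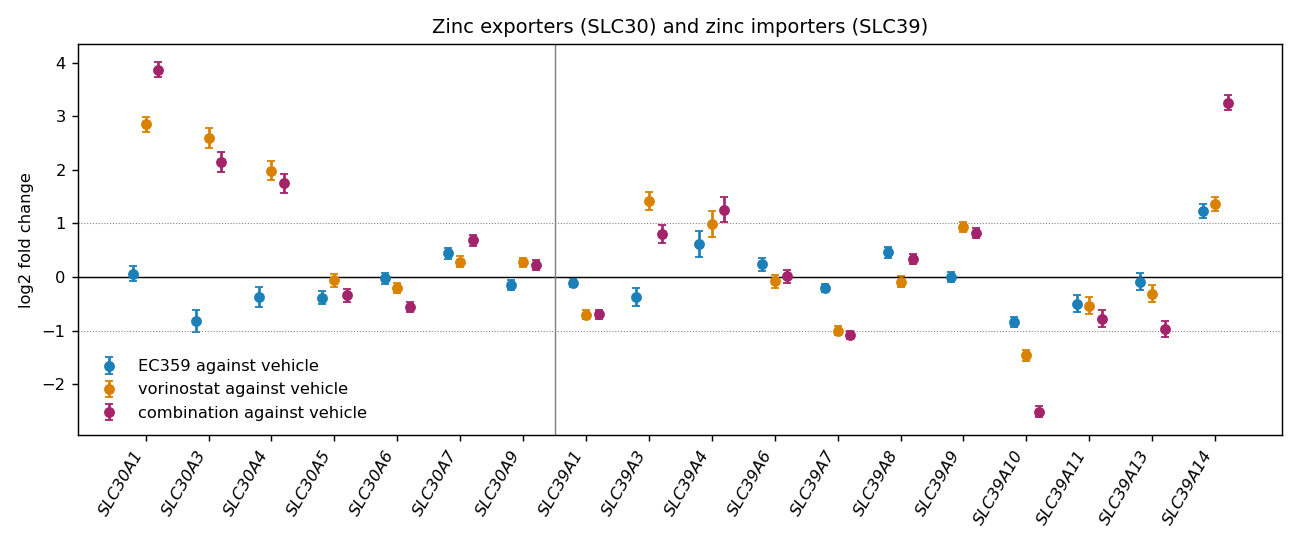
Log2 fold change with standard error against vehicle for 7 zinc exporters, SLC30A1 included, and 11 zinc importers with an average log2 CPM of at least 0, for EC359, vorinostat and the combination. SLC30A1 (3.87 with the combination) and SLC39A14 (3.25) stand highest and SLC39A10 (-2.51) lowest, and dotted lines mark the fold threshold.

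Other genes known to respond to metals or to oxidative stress were counted as a list of 10, all tested. EC359 raised 3 of them and lowered 0: HMOX1, heme oxygenase, by 2.14 ± 0.15 on the log2 scale (edgeR, adjusted p = 2.42e-05), PGF, a placental growth factor gene known as an MTF1 target, by 1.35 ± 0.21 (adjusted p = 0.00257), and GCLM by 1.10 ± 0.10 (adjusted p = 0.000115). Vorinostat raised 8 and lowered 0, and the largest were SRXN1 at 2.64, HSPA1B at 2.44, GCLC at 2.22 and HSPA1A at 2.19 on the log2 scale. HSPA1A and HSPA1B are near-identical copies, so their split is uncertain. With vorinostat PGF was at -0.07 ± 0.22 (edgeR, adjusted p = 0.782). The combination against vorinostat raised 1, HMOX1, by 1.17 ± 0.14 (edgeR, adjusted p = 0.000593). Of all tested genes 1.94% rose with EC359, 16.8% with vorinostat and 3.37% for the combination against vorinostat.

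Of 8 copper handling genes, all tested, EC359 called 0, vorinostat 4 higher and 0 lower, and the combination against vorinostat 0 (edgeR), with 2 for EC359 and 4 for the combination against vorinostat at an unadjusted p under 0.05. The 4 were ATP7B, a copper exporter, at 2.07 on the log2 scale, SLC31A2 at 1.73, CCS, the copper chaperone of superoxide dismutase, at 1.65 and ATOX1 at 1.44. Of 5 genes of the glucocorticoid receptor and its targets, EC359 called 0 and vorinostat 2 higher, KLF9 at 2.04 and PER1 at 2.03, and the combination against vorinostat 0 (edgeR). At an unadjusted p under 0.05 there were 2 with EC359 and 4 with the combination against vorinostat. Of all tested genes 1.94% rose and 1.72% fell with EC359, so 0 calls in lists of this size say little, and 16.8% rose with vorinostat and 3.37% for the combination against vorinostat.

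The genes on either side of the metallothionein cluster were read as a list of neighbours. Of 8 flanking genes 6 were tested, and EC359 called 0 (edgeR, 1 at an unadjusted p under 0.05), with a median log2 fold change of 0.11, where 1.94% of all tested genes rose. Vorinostat called 2 higher, BBS2 at 1.66 and HERPUD1, an endoplasmic reticulum stress gene, at 1.01, and 0 lower, where 16.8% of all tested genes rose and 13.3% fell. The combination against vorinostat called HERPUD1 higher, by 1.25 ± 0.09 on the log2 scale (edgeR, adjusted p = 2.64e-05). HERPUD1 was at 88.3 and 95.0 CPM in the vehicle libraries, 94.1 and 91.3 with EC359, 181 and 188 with vorinostat, and 456 and 421 with the combination.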

How the data were processed

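Total RNA from BT-549 cells was sequenced as 50 bp single-end reads. The authors aligned them to hg19 with TopHat2 (version 2.0.8b in the submitters' processing notes) and deposited raw counts per RefSeq gene symbol from HTSeq, 1 list per library. The strand setting and the HTSeq version are not given in the sources used here. HTSeq's summary lines (no feature, ambiguous and the like) were left out, and gene counts were 85.1% to 88.1% of the unique alignments.

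Groups came from the sample labels. Genes were kept by filterByExpr of edgeR 4.0.16 in R 4.3.3, scaled by TMM and fitted with 1 mean per group over 8 libraries. The quasi-likelihood test was adjusted by the Benjamini-Hochberg method over 13694 genes, and the standard error was taken as the size of the log2 fold change over the square root of F. On simulated data with 13344 genes, 96% of 200 genes changed by 2 on the log2 scale were recovered for vorinostat against vehicle, with 0 false calls. The simulation gave every gene the same spread beyond counting noise (dispersion 0.0135) in every library. The real groups differed in their noise, so the 0 false calls cannot be carried over to them. Recovery of smaller changes, and recovery in the comparisons that involve EC359, was not tested. CPM per kb used the canonical GENCODE transcript. Copies of 50-base windows were searched with BLAST 2.17.0. The 2 libraries of a group differed by 2.26 to 49.6 times the sampling noise (chi-square per degree of freedom, largest for EC359), so the libraries of a group were counted as separate.

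All members and all listed metallothionein genes are named. Of each other list the named genes are at most the 4 with the largest change among those called with vorinostat, and 2 each with EC359 and with the combination against vorinostat. GCLM and SLC30A7 were named after their values were seen. The genes most alike were the 3 with the highest r at an average log2 CPM of at least 3. For MT1X, 1 of them is not reported here. Members and lists were chosen with earlier results of these data known, and the ratios were chosen after seeing the data. Alternatives were RLE and total-count scaling, other filters and thresholds, DESeq2 1.42.0, a replicate block, fits on 4 libraries and leaving out each library.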

Additional observations from a re-analysis of the deposited data

How the results depend on the processing

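With each library left out in turn, the members called ranged from 0 to 2 for EC359 against vehicle (0 without vehicle library 2), from 1 to 3 for the combination against vorinostat, and from 0 to 1 for the interaction. A fit on only the 4 libraries compared called 0 for EC359 against vehicle. For the interaction, 1 member, SLC30A1, was called by DESeq2 and 1 at an adjusted p under 0.05. The replicate block called 1 member for EC359 against vehicle, because MT1X reached an adjusted p of 0.0104 in edgeR, and changed no other count of members. The deviations of same-numbered libraries gave correlations from -0.173 to 0.231, the largest between vehicle and EC359. The correlations differed in sign between groups, so the numbers were not taken as pairs. Whether the vehicle and EC359 libraries were paired was not settled. A replicate block with the combination numbers crossed, chosen after seeing the data, called 1 member for the interaction and left the other counts as they were. The direction changed with a library left out for SLC30A1 under EC359 (log2 fold change -0.0733 to 0.237) and for the interactions of MT1X (-0.177 to 0.943) and MT2A (-0.138 to 0.694). The cause was not tested. Of 445 alternatives for single members, 404 kept direction and side of the threshold, 27 lost the call, 8 gained it and 6 changed direction. Scaling moved the median of all genes by at most 0.0879 on the log2 scale. With 2 libraries per group, a group left with 1 library was assumed to vary like the others.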

Other observations

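Outside the main comparisons, the combination against vehicle called 3 of the 13 tested zinc importers higher and 2 lower. Of all tested genes 19.5% rose and 15.3% fell, so these counts lie near those of all genes. The importers below were named after their values were seen. SLC39A4, the intestinal zinc importer ZIP4, was at 7.88 and 6.63 CPM in the vehicle libraries and 16.5 and 18.3 with the combination (log2 1.26 ± 0.24, edgeR with Benjamini-Hochberg adjustment, adjusted p = 0.00125). SLC39A7, which releases zinc from the endoplasmic reticulum, was at 396 and 388 CPM in the vehicle libraries, 199 and 194 with vorinostat, and 186 and 184 with the combination (log2 -1.08 ± 0.08, adjusted p = 2.83e-06, edgeR). SLC39A12 had 1 and 2 counts in the vehicle libraries, 0 and 0 with EC359, 6 and 13 with vorinostat, and 13 and 19 with the combination. It passed the filter on low counts only through libraries with vorinostat, so its call among the 3 is not read as a result.

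In the list of metal and stress responsive genes, TXNRD1, thioredoxin reductase, was the 1 gene with a called interaction, and its change with both drugs was smaller than the summed changes (log2 -0.95 ± 0.12, edgeR, adjusted p = 0.00283). Its level was 298 and 317 CPM in the vehicle libraries, 564 and 554 with EC359, 1242 and 1259.7 with vorinostat, and 1250.5 and 1099 with the combination. Among the flanking genes HERPUD1 was called above the sum (1.23 ± 0.12, edgeR, adjusted p = 0.000835). Of all tested genes 1.62% were called above the sum and 0.482% below it.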
